A study of Mus musculus with 9 samples.

Results

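Minar1 and core genes of the Notch and mTOR pathways were followed in brain myeloid cells of tau-transgenic and wild-type mice. The set held 9 genes of 36528 in the files: Minar1, the Notch receptors Notch1 and Notch2, the nuclear Notch genes Rbpj and Maml1, and the mTOR genes Mtor, Rptor, Rictor and Deptor. All 9 were among the 12250 genes with enough reads to be tested. Minar1 was chosen by its read counts, which differed between the genotypes in these libraries, so its own genotype difference is given as a description without a test. The other 8 genes were chosen because Minar1 has been reported to act on Notch2 and on mTOR signalling.

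The libraries were made from RNA of brain myeloid cells that carry Cd11b, an integrin chain of microglia and other myeloid cells, sorted at an age of 11 to 12 months. The Tau-P301L group held 5 libraries, of which libraries 1 and 2 came from females and libraries 3, 4 and 5 from males, all carrying a Tau-P301L transgene, a mutant form of the microtubule protein tau linked to inherited dementia. The 4 wild-type libraries came from littermates without the transgene, with females in libraries 1 and 2 and males in libraries 3 and 4. The sources used here give neither the promoter that drives the transgene, nor the strain background, nor how many mice stand behind a library. Since no label ties a library to 1 mouse, the p-values reflect the spread among these samples alone, part of which may be technical. Library totals were 1494727 to 2934587 reads in the Tau-P301L group and 2681666 to 3793606 in the wild-type group. At these depths, 3 reads correspond to 0.791 to 2.01 read counts scaled to the library total (CPM). Tau-P301L libraries 3 and 5 stood apart from the other 7, with a mean correlation to the others of 0.844 and 0.835, against 0.864 to 0.896, and with 9928 and 9063 genes at 10 reads or more, against 10589 to 12101. The labelled sex matched the expressed X and Y genes in 9 of 9 libraries.

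Minar1 encodes a largely disordered membrane protein that has been reported in human cells to bind and stabilise the receptor Notch2, and, under the name Ubtor, to hold back mTOR signalling in cultured cells and zebrafish. In Notch signalling, a ligand on one cell triggers cleavage of the receptor on its neighbour, and the released intracellular part joins the DNA-binding protein Rbpj and a Mastermind coactivator to switch on target genes such as Hes1 and Hes5. The mTOR kinase acts in separate complexes, one built on the scaffold Rptor (mTORC1), which promotes protein synthesis and restrains autophagy and lysosome formation, and one built on Rictor (mTORC2), which activates Akt, while Deptor binds the kinase in both and inhibits it. In microglia both pathways have been studied for their part in activation, metabolism and clearance of debris.

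Promoters are shown for 3 genes because the Rbpj motif GTGGGAA is where the Notch genes meet DNA: Minar1, whose level separated the genotypes, Rictor, the only one of the 8 genes searched with the motif in this window, and Hes5, a known Notch target that holds it for comparison. Each run is the 250 bases before a transcription start in RefSeq's promoter table for GRCm38.p6, written 5′ to 3′ on the gene's strand, with the motif, on either strand, in capitals. The windows are chr9:89622987-89623236 on the minus strand for Minar1, chr15:6708131-6708380 on the plus strand for Rictor and chr4:154960673-154960922 on the plus strand for Hes5. These starts can differ from the outer bounds of a gene given below: the Minar1 window lies inside the bounds of Minar1, and the Rictor window runs past the first base of Rictor.
Minar1: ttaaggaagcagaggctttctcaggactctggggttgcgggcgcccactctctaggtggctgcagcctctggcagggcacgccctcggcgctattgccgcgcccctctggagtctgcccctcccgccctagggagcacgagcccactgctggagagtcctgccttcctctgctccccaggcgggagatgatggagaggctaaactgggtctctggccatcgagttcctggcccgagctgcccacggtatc
Rictor: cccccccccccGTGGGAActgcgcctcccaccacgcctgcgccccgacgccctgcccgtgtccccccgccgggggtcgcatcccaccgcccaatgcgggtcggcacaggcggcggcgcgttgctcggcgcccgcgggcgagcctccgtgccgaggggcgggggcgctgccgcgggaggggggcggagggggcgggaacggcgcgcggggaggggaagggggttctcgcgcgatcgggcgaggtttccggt
Hes5: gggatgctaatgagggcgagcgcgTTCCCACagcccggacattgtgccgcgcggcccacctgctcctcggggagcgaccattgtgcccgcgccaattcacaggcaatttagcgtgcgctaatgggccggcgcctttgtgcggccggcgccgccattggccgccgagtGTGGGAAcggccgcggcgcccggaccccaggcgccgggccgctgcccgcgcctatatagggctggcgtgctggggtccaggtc
The Minar1 window held 0 matches on either strand, the Rictor window held 1 and the Hes5 window held 2. Of 32851 promoters of this length in the table, 5.42% held the motif. Promoters were found for 8 of the 9 genes, 9 windows in all with both starts of Rbpj, and 1 of the 9 windows held GTGGGAA. A second motif, CACGTG, a core of the sites bound by the lysosomal regulator Tfeb and by other E-box factors, was in 0 of the 9 windows and in 6.02% of all promoters. A match describes these letters only, and no binding was measured.

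Minar1 (chr9:89587208-89623887 on GRCm38, Entrez gene 209743) had 86, 64, 78, 44 and 19 reads in Tau-P301L libraries 1 to 5, and 12, 18, 19 and 15 reads in wild-type libraries 1 to 4. After scaling for library size with edgeR's TMM factors these were 27.3, 22.9, 35.0, 18.8 and 13.3 CPM in the Tau-P301L libraries, against 3.68, 6.14, 7.27 and 4.15 CPM in the wild-type libraries. The 5 Tau-P301L libraries all lay above the 4 wild-type libraries. Tau-P301L library 5, the shallowest, had as many Minar1 reads as wild-type library 3, so that its place above the wild-type range rests on its smaller total. The means were 23.4 ± 8.27 CPM (SD, n = 5) and 5.31 ± 1.69 CPM (SD, n = 4), a 4.42-fold ratio, and the fitted log2 fold change was 2.15 (SE 0.46). These are the values that brought Minar1 into the set. As background, 160 of the 12250 tested genes, or 1.31%, lay wholly higher in the Tau-P301L libraries, and 89, or 0.727%, had a log2 fold change above 2. By sex, Minar1 averaged 25.1 CPM in Tau-P301L females against 4.91 CPM in wild-type females, and 22.4 CPM in Tau-P301L males against 5.71 CPM in wild-type males. Its paralog Minar2 was too low to test, with at most 8 reads in any library of either group.

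**Figure D1:**
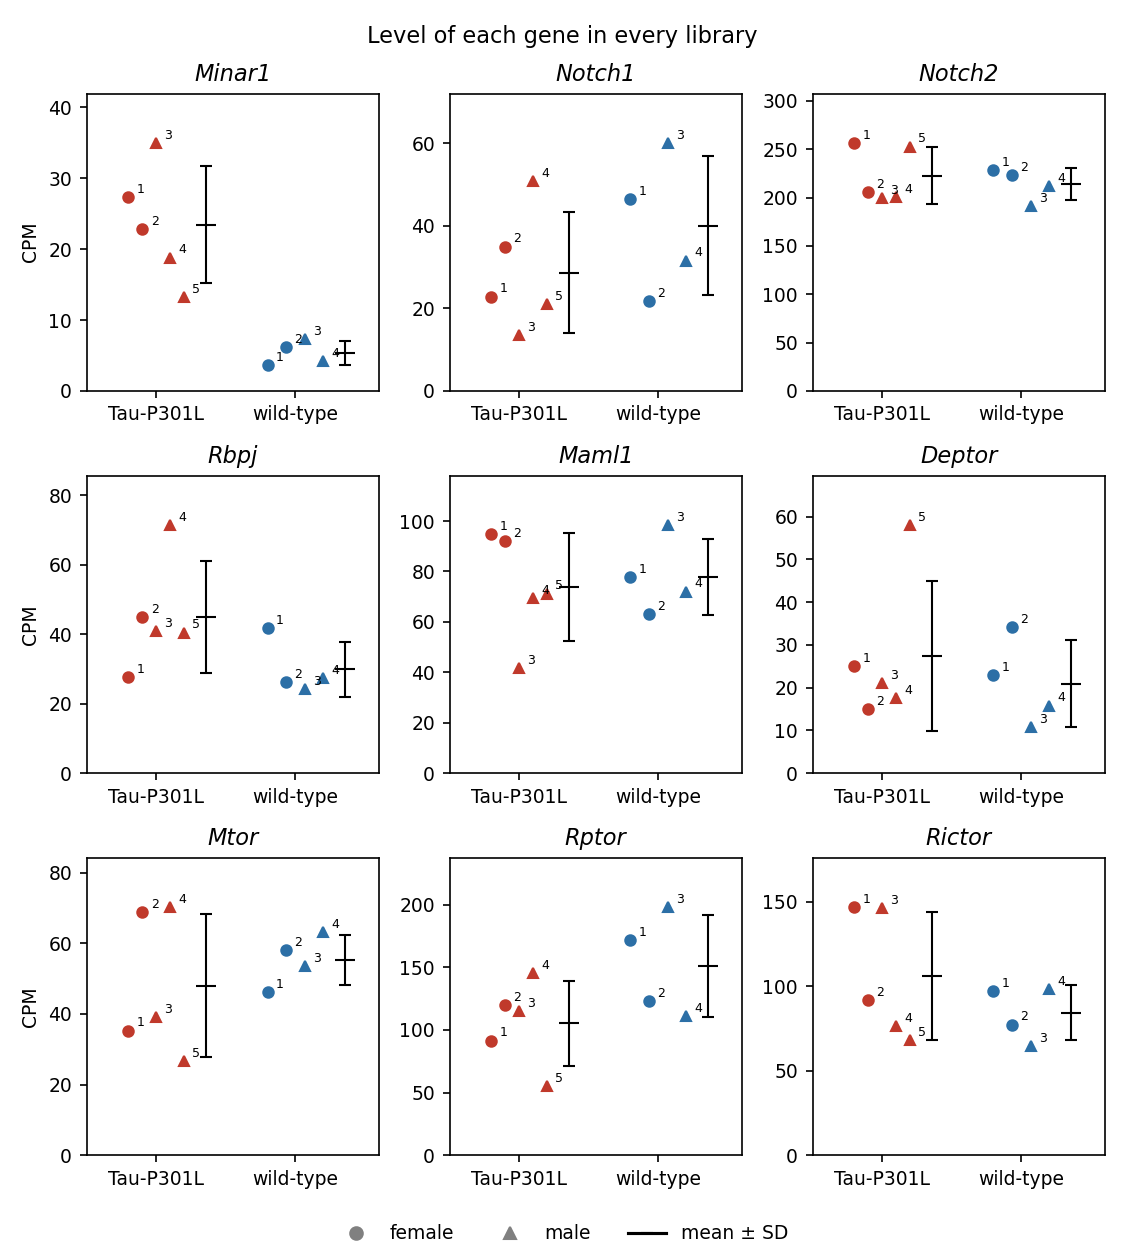
Normalised read counts (CPM, linear axes from 0) of the 9 genes, with Tau-P301L libraries left of wild-type libraries; each point is a library with its number beside it, circles are females and triangles males, and black bars are group means ± SD. The Tau-P301L points lie above all wild-type points for Minar1, between 13.3 and 35.0 CPM, while the groups overlap for the other 8 genes.

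None of the other 8 genes passed the threshold for genotype (edgeR quasi-likelihood test, Benjamini-Hochberg adjusted p under 0.05 over all 12250 genes), and the groups overlapped in each. DESeq2 called 0 of the 8, and 0 had an unadjusted p under 0.05 in edgeR. Across all tested genes edgeR called 0.00816% higher and 0.0% lower, DESeq2 called 0.22%, and 6.35% had an unadjusted p under 0.05, made up of 3.57% with higher and 2.78% with lower values. Of the 8, 4 had estimates above 0 and 4 below, with a median log2 fold change of -0.01, beside 49.9% above 0 and a median of 0.00 over all genes tested. In sorted bulk samples a lower value from fewer cells of a type cannot be told apart from less RNA per cell.

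Notch2, the receptor that Minar1 has been reported to stabilise (chr3:98013538-98150367, Entrez gene 18129), was the most evenly expressed gene of the set. It had 256, 205, 199, 200 and 253 CPM in the Tau-P301L libraries, against 229, 223, 191 and 212 CPM in the wild-type libraries. The averages were 223 ± 29.2 CPM (SD, n = 5) and 214 ± 16.5 CPM (SD, n = 4), and 3 of the 4 wild-type libraries lay inside the Tau-P301L range. The log2 fold change was 0.07 (SE 0.21), with a 95% interval from -0.37 to 0.51 and an adjusted p of 0.964 in edgeR. The interval allows changes in Notch2 mRNA in both directions. Protein was not measured.

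Notch1 (chr2:26457902-26503822, Entrez gene 18128), the founding member of the receptor family, was much more variable. It had 22.9, 35.0, 13.5, 50.9 and 20.9 CPM in the Tau-P301L libraries, against 46.6, 21.8, 60.1 and 31.6 CPM in the wild-type libraries. Tau-P301L library 3 was the lowest of the 9 and wild-type library 3 the highest. The means were 28.6 ± 14.6 CPM (SD, n = 5) and 40.0 ± 16.8 CPM (SD, n = 4), with a log2 fold change of -0.48 (SE 0.40, 95% interval -1.32 to 0.35, edgeR adjusted p = 0.849). Within libraries, the log2 ratio of Notch1 to Notch2 reads was -3.09 ± 0.80 in the Tau-P301L group and -2.51 ± 0.71 in the wild-type group, a difference of -0.57 (two-sided exact permutation test, p = 0.286, adjusted over 3 ratios 0.429).

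Rbpj (chr5:53555779-53657445, Entrez gene 19664), the DNA-binding protein on which the cleaved receptors act, had 27.6, 45.0, 40.8, 71.4 and 40.5 CPM in the Tau-P301L libraries, against 41.7, 26.3, 24.1 and 27.4 CPM in the wild-type libraries. Only Tau-P301L libraries 2 and 4 exceeded the highest wild-type library. The means were 45.1 ± 16.1 CPM (SD, n = 5) and 29.9 ± 7.998 CPM (SD, n = 4), and the log2 fold change of 0.57 (SE 0.35) had a 95% interval from -0.16 to 1.30 and an edgeR adjusted p of 0.793. RefSeq lists 3 pseudogene copies of Rbpj, and reads that align to more than 1 place were not counted, so its level is uncertain. Maml1 (chr11:50255634-50293131, Entrez gene 103806), the Mastermind coactivator that completes the complex on DNA, had 95.0, 92.1, 41.7, 69.3 and 71.2 CPM in the Tau-P301L libraries, against 77.8, 63.1, 98.3 and 72.0 CPM in the wild-type libraries. Tau-P301L library 3 was the lowest of the 9 and the other 4 lay within the wild-type range. Its log2 fold change was -0.08 (SE 0.28, 95% interval -0.67 to 0.50, edgeR adjusted p = 0.967).

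Mtor (chr4:148448582-148557685, Entrez gene 56717), the kinase itself, had 35.3, 68.9, 39.0, 70.1 and 26.5 CPM in the Tau-P301L libraries, against 46.3, 58.0, 53.6 and 63.1 CPM in the wild-type libraries. The Tau-P301L values lay on both sides of the narrower wild-type range, 2 above it and 3 below. The log2 fold change was -0.20 (SE 0.32, 95% interval -0.87 to 0.48, edgeR adjusted p = 0.933). Angptl7, a secreted protein gene inside the bounds of Mtor, had 199 reads over the 9 libraries, and since counting is not stated to use strand, reads of the overlapping genes may be shared.

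Rptor (chr11:119602905-119899591, Entrez gene 74370), the scaffold that recruits substrates to mTORC1, had 91.5, 120, 115, 145 and 55.2 CPM in the Tau-P301L libraries, against 172, 123, 198 and 111 CPM in the wild-type libraries. Tau-P301L libraries 1 and 5 lay below the lowest wild-type library and the other 3 within its range. The means were 105 ± 34.0 CPM (SD, n = 5) and 151 ± 40.9 CPM (SD, n = 4), with a log2 fold change of -0.52 (SE 0.28, 95% interval -1.11 to 0.07, edgeR adjusted p = 0.789). The antisense gene Rptoros, which lies within Rptor, had 216 reads in all and may share reads with it.

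Rictor (chr15:6708349-6800401, Entrez gene 78757), the scaffold of mTORC2, had 147, 92.1, 146, 76.5 and 68.4 CPM in the Tau-P301L libraries, against 97.2, 77.4, 64.7 and 98.3 CPM in the wild-type libraries. Libraries 1 and 3 of the Tau-P301L group exceeded the wild-type range and the other 3 lay inside it. The means were 106 ± 37.9 CPM (SD, n = 5) and 84.4 ± 16.3 CPM (SD, n = 4), and the log2 fold change was 0.34 (SE 0.28, 95% interval -0.25 to 0.94, edgeR adjusted p = 0.849). As Rictor and Rptor mark the separate complexes, the log2 ratio of their reads was compared within libraries, where scaling between libraries has no part. It draws on the same reads as the estimates of both genes and adds no independent evidence to them. It was 0.68, -0.38, 0.34, -0.92 and 0.31 in the Tau-P301L libraries, against -0.82, -0.67, -1.61 and -0.17 in the wild-type libraries. Tau-P301L libraries 1, 3 and 5 lay above all wild-type libraries, while libraries 2 and 4 lay within them. The means were 0.01 ± 0.65 (SD, n = 5) and -0.82 ± 0.60 (SD, n = 4), a difference of 0.82 that did not pass the exact permutation test (two-sided, p = 0.111, adjusted over 3 ratios 0.333, smallest possible p 0.00794). The difference was 0.90 among females and 0.80 among males, and 0.61 without Tau-P301L libraries 3 and 5.

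Deptor (chr15:55112317-55259273, Entrez gene 97998), the inhibitor bound to the mTOR kinase, was the most variable of the 9 genes. It had 25.1, 15.0, 21.1, 17.5 and 58.0 CPM in the Tau-P301L libraries, against 23.0, 34.1, 10.7 and 15.8 CPM in the wild-type libraries. Library 5 of the Tau-P301L group exceeded every other library, and the other 4 lay within the wild-type range. The means were 27.3 ± 17.5 CPM (SD, n = 5) and 20.9 ± 10.1 CPM (SD, n = 4), with a log2 fold change of 0.42 (SE 0.48, 95% interval -0.58 to 1.43, edgeR adjusted p = 0.897). Without Tau-P301L library 5 the log2 fold change was 0.0035. Library 5 also had the highest summed marker levels of neurons, astrocytes, oligodendrocytes and their precursors among the 9 libraries, at 2825, 681, 1443 and 92.9 CPM. The part of these cells in its Deptor level was not tested. The log2 ratio of Deptor to Mtor reads was -0.89 ± 1.33 in the Tau-P301L group and -1.51 ± 0.75 in the wild-type group, a difference of 0.63 (exact permutation test, two-sided, p = 0.429, adjusted over 3 ratios 0.429).

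**Figure D2:**
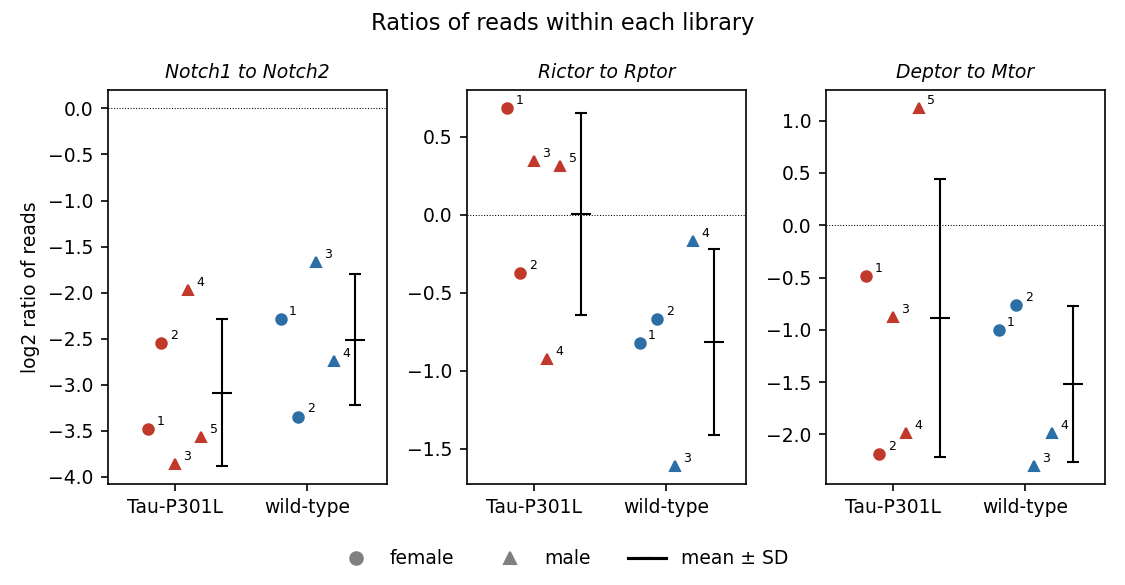
Log2 ratio of reads within each library for Notch1 to Notch2, Rictor to Rptor and Deptor to Mtor, with Tau-P301L left of wild-type; points are libraries, circles females and triangles males, and black bars are group means ± SD. The groups overlap in all 3 ratios, and the mean of Rictor to Rptor is 0.01 in the Tau-P301L group and -0.82 in the wild-type group.

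Levels can be compared between genes only per length, and for this the authors' length-normalised expression (nRPKM, which is RPKM rescaled by a size factor per library) was used. In the Tau-P301L group Notch2 had the highest mean level at 5.17 ± 0.68 (SD, n = 5), followed by Rptor at 3.55 ± 1.14, Rictor at 2.75 ± 0.99 and Maml1 at 2.66 ± 0.73. Below them came Mtor at 1.36 ± 0.56, Rbpj at 1.28 ± 0.46, Deptor at 0.77 ± 0.51, Notch1 at 0.73 ± 0.37 and Minar1 at 0.64 ± 0.23. In this order only Maml1 and Mtor, among neighbours, had mean ± SD ranges that did not overlap. In the wild-type group Rptor at 5.04 ± 1.41 and Notch2 at 4.91 ± 0.34 (SD, n = 4) could not be separated, and Maml1 at 2.78 ± 0.56 and Rictor at 2.16 ± 0.39 followed. Then came Mtor at 1.55 ± 0.20, Notch1 at 1.02 ± 0.44, Rbpj at 0.84 ± 0.22, Deptor at 0.58 ± 0.28 and Minar1 at 0.14 ± 0.05. Here the mean ± SD ranges of Notch2 and Maml1, of Rictor and Mtor, and of Deptor and Minar1 did not overlap. Minar1 was the lowest gene of the set in both groups, apart from its neighbour in the wild-type group and not in the Tau-P301L group.

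**Figure D3:**
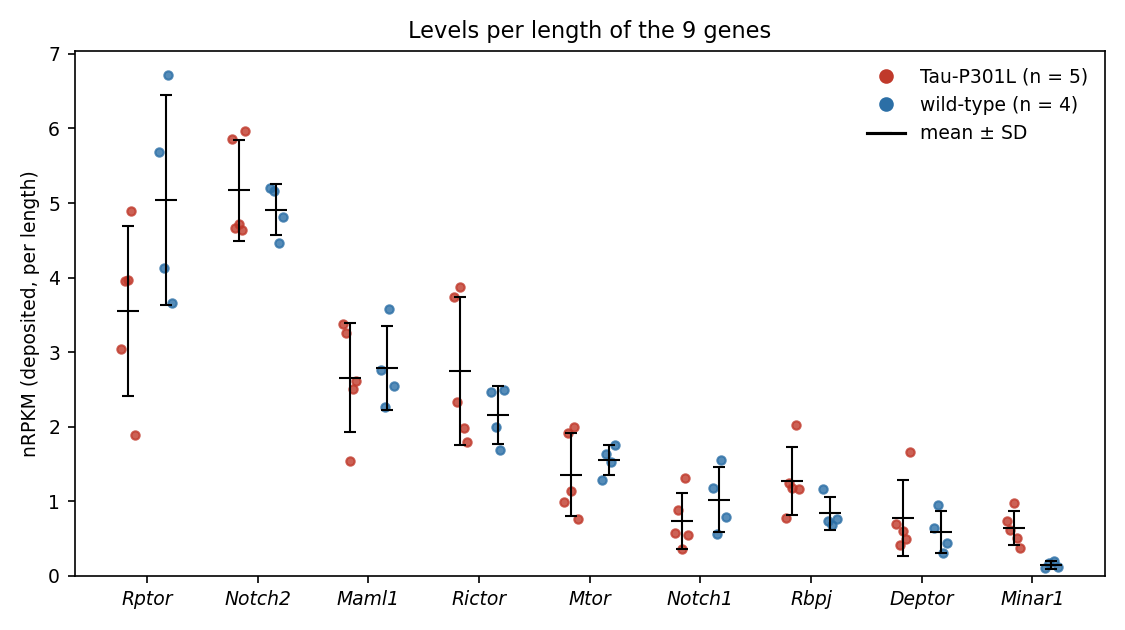
Level per length of the 9 genes (nRPKM, the authors' size-factor-adjusted RPKM, linear axis from 0), with Tau-P301L left of wild-type for each gene; points are libraries and black bars are group means ± SD. Notch2 and Rptor have the highest means in both groups and Minar1 the lowest, at 0.64 in the Tau-P301L group and 0.14 in the wild-type group.

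The wider Notch pathway was described with lists of ligands, receptors, processing enzymes, regulators, nuclear factors and targets, 57 genes without those of the set, of which 43 were tested. In each list 0 genes passed the threshold in edgeR or DESeq2. Of the 43, 16 had estimates above 0 and 27 below, with a median log2 fold change of -0.16, against 6118 above and 6132 below and a median of 0.00 over all genes. An unadjusted p under 0.05 was found for 2 of the 43, where 6.35% of all genes had one. Among ligands only Jag2 was tested, at 3.46 ± 1.23 CPM in the Tau-P301L group and 3.05 ± 2.13 CPM in the wild-type group. Jag1 was too low to test, with reads of 1 to 39 per Tau-P301L library and 0 to 9 per wild-type library, and Dll4 had 0 reads in all 9 libraries. Among the remaining receptors, Notch4, known for its part in endothelium, had 8.82 ± 7.51 CPM in the Tau-P301L group and 16.1 ± 10.9 CPM in the wild-type group (edgeR adjusted p = 0.849), and Notch3 was too low to test. The marker sum of endothelium was 14.3 to 42.6 CPM in the Tau-P301L libraries and 19.8 to 30.5 CPM in the wild-type libraries, with Cldn5 at 0 in all 9.

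Of the 13 tested genes that process the receptors, Furin, the protease that cuts the precursor, had 17.6 ± 9.20 CPM in the Tau-P301L group and 32.8 ± 7.17 CPM in the wild-type group (log2 fold change -0.88, SE 0.41, edgeR adjusted p = 0.776). Poglut1, which adds glucose to the receptors' extracellular repeats, had 30.3 ± 4.32 CPM in the Tau-P301L group and 18.7 ± 6.78 CPM in the wild-type group (log2 fold change 0.71, SE 0.35, edgeR adjusted p = 0.776). The 12 tested regulators had 5 estimates above 0 and 7 below, with Dtx2 and Dtx3, of the Deltex family, at -0.99 and -0.58. Among 14 tested nuclear genes, 4 estimates were above 0 and 10 below. Maml3, another Mastermind coactivator, had 251 ± 32.8 CPM in the Tau-P301L group and 339 ± 136 CPM in the wild-type group, with a log2 fold change of -0.44.

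Notch targets were sparse in these cells, and 4 of the 9 listed were tested, 1 with an estimate above 0 and 3 below. Ccnd1, a cyclin of the G1 phase, had 84.8 ± 14.2 CPM in the Tau-P301L group and 126 ± 37.5 CPM in the wild-type group (log2 fold change -0.55, SE 0.27, edgeR adjusted p = 0.776). Hes1, a repressor induced by Notch, had 1.82 ± 1.15 CPM in the Tau-P301L group and 5.27 ± 4.88 CPM in the wild-type group (log2 fold change -1.13, SE 0.86, edgeR adjusted p = 0.831). Its reads were 0 to 9 per Tau-P301L library and 3 to 36 per wild-type library, so the groups overlapped. Hes5, whose promoter is shown above, had 0 reads in the 5 Tau-P301L libraries and 15 reads over the 4 wild-type libraries, of which 13 came from 1 library, and was too low to test.

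The wider mTOR pathway was described with 85 genes without those of the set, of which 68 were tested and 0 passed the threshold in edgeR or DESeq2. The estimates were above 0 in 35 and below in 33, with a median log2 fold change of 0.00, and 0 had an unadjusted p under 0.05. As background, edgeR called 0.00816% of all tested genes and DESeq2 called 0.22%, while 6.35% had an unadjusted p under 0.05 in edgeR. Among the other subunits and assembly factors of the complexes, Tti1, which helps to assemble the kinase, had 83.8 ± 57.1 CPM in the Tau-P301L group and 46.0 ± 9.90 CPM in the wild-type group (log2 fold change 0.73, SE 0.38, edgeR adjusted p = 0.788). Prr5l, which associates with mTORC2, had 9.46 ± 6.59 CPM in the Tau-P301L group and 3.87 ± 1.69 CPM in the wild-type group (log2 fold change 1.24, SE 0.65, edgeR adjusted p = 0.789). Upstream of the complexes, 14 of 21 tested genes had estimates above 0. Tsc1, a subunit of the complex that inhibits mTORC1, had 97.6 ± 34.9 CPM in the Tau-P301L group and 63.0 ± 21.0 CPM in the wild-type group (log2 fold change 0.62, SE 0.32, edgeR adjusted p = 0.788), and Pik3cd, a catalytic subunit of PI3K of immune cells, had a log2 fold change of -0.41 (SE 0.27).

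The amino-acid branch, which brings mTORC1 to the lysosome, had 22 tested genes with 11 estimates on each side of 0. Rragd, a Rag GTPase, had 6.26 ± 4.12 CPM in the Tau-P301L group and 1.77 ± 1.51 CPM in the wild-type group (log2 fold change 1.63, SE 0.79, edgeR adjusted p = 0.776). Itfg2, a subunit of the KICSTOR complex that restrains mTORC1, had 5.05 ± 2.36 CPM in the Tau-P301L group and 10.7 ± 3.50 CPM in the wild-type group (log2 fold change -1.03, SE 0.53, edgeR adjusted p = 0.787). Its groups did not overlap, as was so for 1.18% of all tested genes in that direction. In the list of genes downstream of mTOR, 6 of 19 estimates were above 0 and 13 below, with a median log2 fold change of -0.17. Ulk1, the kinase that starts autophagy, had 37.2 ± 10.2 CPM in the Tau-P301L group and 54.7 ± 15.3 CPM in the wild-type group, and Tfeb, the lysosomal transcription factor that mTORC1 keeps out of the nucleus, had 9.56 ± 4.18 CPM in the Tau-P301L group and 16.8 ± 9.51 CPM in the wild-type group. Their edgeR adjusted p-values were 0.789 and 0.798.

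**Figure D4:**
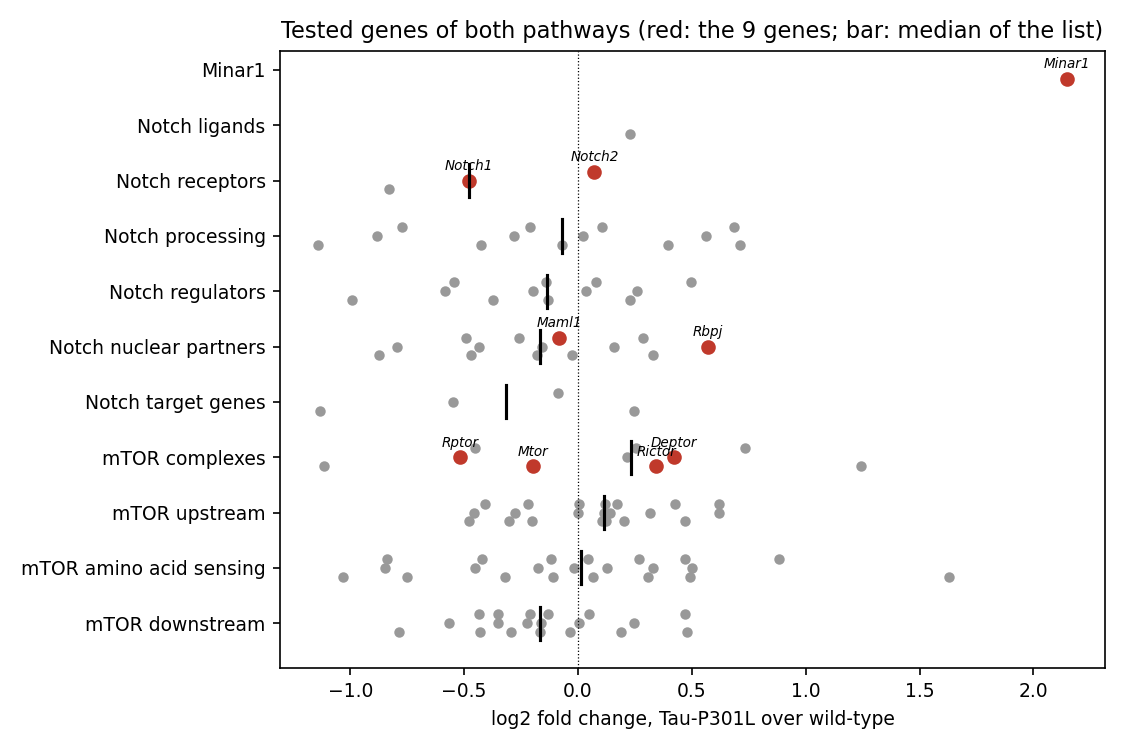
Log2 fold change (Tau-P301L over wild-type, edgeR) of the tested genes of Minar1 and of each Notch and mTOR list; each point is a gene, the 9 genes of the set are in red and bars are list medians. Minar1 lies at 2.15, while the other 8 genes of the set lie between -0.52 and 0.57.

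Libraries were also compared by sex, a contrast that had no part in choosing the genes. Minar1 averaged 15.7 CPM in males and 15.0 CPM in females, with a log2 fold change of -0.01 (SE 0.46) in the fit that also held genotype, and none of the 9 genes passed the threshold (edgeR adjusted p at least 0.9998, where 0.049% of all genes were called and 2.43% had an unadjusted p under 0.05). The estimates for sex, males over females, lay between -0.22 for Maml1 and 0.18 for Notch1. The genotype difference of Minar1 and of the other 8 genes was also compared between the sexes, and 0 of 13302 genes passed (edgeR, 526 or 3.95% with an unadjusted p under 0.05). The estimate farthest from 0 among the 9 genes was that of Deptor, whose genotype difference was 1.76 (SE 0.86) larger in males on the log2 scale. Deptor averaged 20.0 CPM in Tau-P301L females against 28.5 CPM in wild-type females, and 32.2 CPM in Tau-P301L males against 13.2 CPM in wild-type males, with Tau-P301L library 5 among the males.

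Over the 9 libraries the gene whose log2 CPM followed Minar1 most closely was Rai14, an actin-associated protein gene, with r = 0.98 and rho = 0.97. Rai14 averaged 20.0 CPM in the Tau-P301L group and 7.20 CPM in the wild-type group. Next came Gas2l3, Retreg3, Fam160a1 and Cytip, with r between 0.89 and 0.90. Genes that separate the genotypes share that separation with Minar1, so the comparison was repeated with the mean of each genotype removed. The nearest genes were then Secisbp2, Lipo3, Gm4924, Dhx40 and AI837181, with r between 0.93 and 0.94, and none of them was among the first 5. Within the set, r with Minar1 over all 9 libraries was 0.48 for Rictor, 0.39 for Rbpj, 0.05 for Deptor, -0.01 for Notch2, -0.21 for Maml1, -0.25 for Mtor, -0.35 for Rptor and -0.45 for Notch1. With the genotype means removed it was 0.47 for Rptor, 0.45 for Rictor, 0.15 for Mtor, -0.18 for Maml1, -0.25 for Notch1, -0.45 for Notch2, -0.47 for Deptor and -0.48 for Rbpj. The points share their libraries and depth, and the values describe 9 points. The nearest genes were picked as the highest of 12250 tested genes. With so many genes and so few points, high r can arise by chance, and none of these values was tested.

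Genes around Minar1 on chromosome 9 were read in a window of 1 Mb on each side, chosen after the values were seen. Of 23 genes there, 7 were tested, 4 with estimates above 0 and 3 below, and 0 passed the threshold in edgeR, with a smallest adjusted p of 0.816. Since edgeR called 0.00816% of all 12250 tested genes, little can be read from that 0. The log2 fold changes of the 7 neighbours lay between -0.60 for Tmed3 and 0.42 for Trim43c, with a median of 0.17. Ctsh, a lysosomal cathepsin and the most highly counted neighbour, had 114 CPM in the Tau-P301L group and 102 CPM in the wild-type group.

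The label of the cells was compared with marker genes. All 10 microglial markers were tested, and their summed level was 9289 to 16462 CPM in the Tau-P301L libraries and 11783 to 15599 CPM in the wild-type libraries. Of the 10, 9 had genotype estimates below 0, with a median log2 fold change of -0.26, and 2 had an unadjusted p under 0.05, while 0 passed the threshold in edgeR or DESeq2. Over all 12250 tested genes, 6132 had estimates below 0, the median was -0.0007, and 6.35% had an unadjusted p under 0.05 in edgeR. Markers of border macrophages summed to 51.8 to 97.8 CPM in the Tau-P301L libraries and 32.9 to 115 CPM in the wild-type libraries. Neuronal markers summed to 442 to 2825 CPM in the Tau-P301L libraries and 724 to 1839 CPM in the wild-type libraries, and those of oligodendrocyte precursors to 18.7 to 92.9 CPM in the Tau-P301L libraries and to at most 24.9 CPM in the wild-type libraries, with Tau-P301L libraries 3, 4 and 5 the highest. In Tau-P301L libraries 1 to 5 the neuronal sum was 442, 1476, 1490, 1255 and 2825 CPM, and its part in the Minar1 level was not tested. Neutrophil markers summed to 0.0 to 209 CPM in the Tau-P301L libraries, with library 4 the highest, and 0.34 to 62.4 CPM in the wild-type libraries. Without Tau-P301L libraries 3 and 5 the log2 fold change of Minar1 was 2.10. Lymphocyte markers summed to at most 2.5 CPM in the Tau-P301L libraries and 2.7 CPM in the wild-type libraries, with Cd3e and Nkg7 at 0 in all 9.

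Single libraries moved several of the estimates that did not pass the threshold. With each library left out in turn, the genotype log2 fold change of Notch1 ranged from -0.81 without Tau-P301L library 4 to -0.20 without wild-type library 3, and it was -0.08 without Tau-P301L libraries 3 and 5. The same ranges were 0.01 to 0.14 for Notch2, 0.38 to 0.79 for Rbpj, -0.42 to -0.05 for Mtor, -0.67 to -0.31 for Rptor, 0.15 to 0.51 for Rictor and 0.0035 to 0.76 for Deptor. For Rbpj the estimate was 0.09 in females only and 0.99 in males only.

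**Figure D5:**
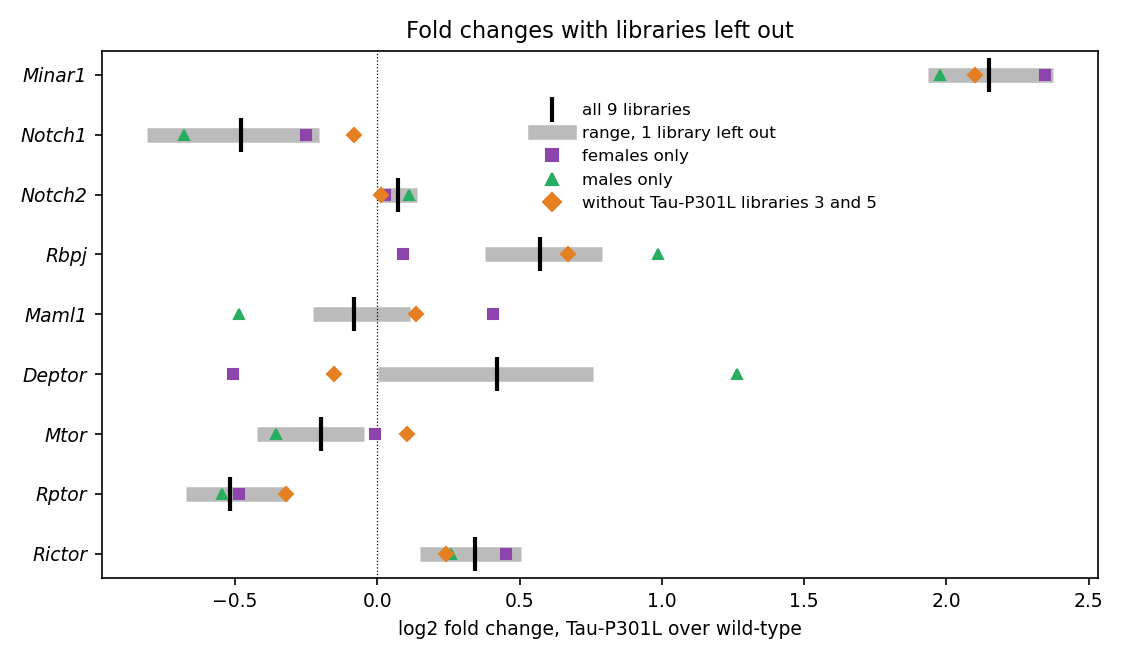
Log2 fold change (Tau-P301L over wild-type, edgeR) of each of the 9 genes; black ticks use all 9 libraries, grey bars span the values with 1 library left out, and coloured symbols show females only, males only and the fit without Tau-P301L libraries 3 and 5. With 1 library left out, Minar1, which was chosen for its difference, lies between 1.93 and 2.37, and Maml1 lies between -0.23 and 0.11.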

How the data were processed

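Each library had a table of genes by Entrez number. The authors deposited whole-number counts of uniquely aligned reads per gene and RPKM rescaled by a size factor per library, per the file headers. Reads were aligned with GSNAP to GRCm38, per the submitters' processing notes, while the sources used here name no versions, annotation or strand handling. Uniquely aligned reads lower the counts of genes with near-identical copies. Symbols, positions and promoters came from RefSeq tables of GRCm38.p6, and 31049 of 36528 numbers had a symbol.

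Counts were tested with edgeR 4.0.16 in R 4.3.3 (quasi-likelihood F test, TMM scaling, default low-count filter, robust dispersions, terms for sex and genotype, Benjamini-Hochberg adjustment at 0.05). The fit kept 12250 genes and had 6 residual degrees of freedom, with a biological coefficient of variation of 0.464. Intervals for fold changes use the standard error and the t distribution. Ratios within libraries had 0.5 added to each count and were tested by exact permutation. Correlations used log2 CPM with a prior count of 2. RPKM was used to compare levels between genes, to recover the authors' size factors and, as an alternative, for the ratios within libraries. All 36 pairs of libraries differed by more than sampling noise, with a smallest chi-square per degree of freedom of 10.7. The edgeR fit was also run on counts simulated from its own fitted model without a sex effect. Such counts cannot show how the fit handles libraries that stand apart, and the outcome is not reported here. The intervals given for fold changes rest on the spread between libraries as fitted by edgeR, and not on counting error alone.

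Alternatives were DESeq2 1.42.0, limma-voom 3.58.1 with sample weights, RLE scaling, the authors' size factors, no low-count filter, at least 10 reads in at least 5 libraries, no sex term, each sex alone, and libraries left out. The 9 genes, the gene lists and the markers were chosen with earlier results of these data known. By rule, the 9 genes were always named, with the 2 tested genes of smallest p in each list and the 5 genes most like Minar1. Some results that the rule takes are not reported here. Jag1, Dll4, Notch3, Hes5, Minar2, the overlapping genes, the neighbours and the markers are named outside that rule and were chosen after their values were seen.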

Additional observations from a re-analysis of the deposited data

Results flagged for a closer look

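Deptor in Tau-P301L library 5 stood far from the rest of its group, at 58.0 CPM beside 15.0 to 25.1 CPM in the other 4 Tau-P301L libraries. The gap from this library to its nearest neighbour exceeded Dixon's 95% critical value for a group of 5. Chance alone flags about 1 in 20 groups, and 24 groups were checked in this way. The same library had the fewest reads and the highest summed markers of neurons, astrocytes and oligodendrocytes, and the part of these in the Deptor level was not tested.

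Maml1 differed between the genotypes in opposite directions in the sexes, library by library. Among females, both Tau-P301L libraries, at 95.0 and 92.1 CPM, lay above both wild-type libraries, at 77.8 and 63.1 CPM. Among males, the 3 Tau-P301L libraries, at 41.7, 69.3 and 71.2 CPM, lay below both wild-type libraries, at 98.3 and 72.0 CPM. The tested difference between the genotype effects, males over females, was -0.90 (SE 0.56) on the log2 scale. It did not pass the threshold (edgeR, unadjusted p = 0.125, adjusted p = 0.99999). The male groups were barely apart, at 71.2 against 72.0 CPM at their nearest libraries. How many of all tested genes were ordered in this way was not counted, and with so few libraries per sex such an order can arise by chance.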

How the results depend on the processing

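The Minar1 log2 fold change lay between 1.93 and 2.37 over 19 alternatives. Minar1 was chosen for this difference, and each Tau-P301L library lay above each wild-type library. Leaving libraries out could therefore hardly turn its sign, and the range adds no support. The number of genes past the genotype threshold, 1 in edgeR, was 27 with DESeq2, 26 with no low-count filter, 0 in females only, 0 in males only, 0 without Tau-P301L libraries 3 and 5, and 0 to 1 with each library left out in turn, with 0 without any 1 wild-type library or Tau-P301L library 1, 3 or 5; the cause was not tested. Among genotype log2 fold changes, Maml1 turned to 0.010 with limma-voom, 0.41 in females only and 0.14 without Tau-P301L libraries 3 and 5, with a leave-one-out range of -0.23 to 0.11. Deptor turned to -0.51 in females only and -0.15 without Tau-P301L libraries 3 and 5, and Mtor to 0.10 without those libraries. The Deptor to Mtor log2 ratio difference turned to -0.039 without them and -0.45 in females only. The sex estimate of Minar1 turned to 0.019 with DESeq2, 0.022 with RLE scaling and 0.0071 with the stricter filter. Leaving out single libraries gave sex ranges of -0.25 to 0.15 for Minar1, -0.13 to 0.39 for Notch1, -0.14 to 0.30 for Rbpj, -0.58 to 0.14 for Deptor, -0.23 to 0.26 for Mtor and -0.15 to 0.18 for Rptor. The Minar1 genotype difference is given without a test, and none of the other estimates named here passed a threshold. No paired analysis was possible because the labels number no replicates, and the library numbers used here follow the order of the samples and pair none of them. At these depths Notch ligands had few reads, from 0 of Dll4 in every library to at most 39 of Jag1 in a Tau-P301L library. The tested ligand Jag2 had 3 to 15 reads per Tau-P301L library and 4 to 16 per wild-type library. Reads of Hes1 and Hes5 were few as well.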
